A study of Mus musculus with 4 samples.

Results

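The granins are acidic proteins packed into dense-core vesicles, the organelles in which endocrine cells and neurons store peptides until a calcium signal releases them. Inside these vesicles peptide precursors are cut at pairs of basic residues by the prohormone convertases, and the basic residues left behind are removed by a carboxypeptidase. The expression of 10 genes of this pathway was examined, comprising the granins and granin-like proteins *Chga*, *Chgb*, *Scg2*, *Scg3*, *Scg5*, *Vgf* and *Pcsk1n* and the processing enzymes *Pcsk1*, *Pcsk2* and *Cpe*. All 10 were found by gene symbol among the 23997 genes of the deposited table. The genes were selected on their FPKM in the 2 populations compared here, with earlier results known, so their differences are given as a description and not tested.

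The values came from EGFP+ cells sorted from cochleae of C57BL/6 mice at postnatal day 3. Lgr5+ progenitors were isolated from Lgr5-EGFP-IRES-creERT2 mice and Lgr6+ progenitors from Lgr6-EGFP-IRES-CreERT2 mice, so in each line the reporter and the tamoxifen-inducible Cre are driven from the *Lgr5* or the *Lgr6* locus, and the mouse line and the population cannot be told apart. No treatment or further allele was named. The labels list 2 libraries per population, whereas the methods describe 1 RNA extraction per population divided into 3 fractions, and the table holds 1 combined FPKM value (fragments scaled to transcript length and to sequencing depth) for each gene in each population. The spread between libraries cannot be taken from these values, and the differences below are given without a replicate check.

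A gene was kept when its FPKM was at least 1 in at least 1 population, which held for 13436 genes and for 8 of the 10 genes of the pathway. The log2 change is the difference in log2(FPKM + 1), positive where Lgr6+ progenitors had the larger value, and its median over all kept genes was 0.03. The FPKM sum in Lgr6+ progenitors was 83.3% of that in Lgr5+ progenitors. Low FPKM values multiplied by transcript length were most frequent in a single narrow bin in each population, here called a step. This bin held 85 genes in Lgr5+ and 28 in Lgr6+ progenitors, against means of 10.5 and 8.5 in the 2 bins beside it. Whether a step is 1 fragment was not shown. If it is, the Lgr6+ value rests on 3.18 times as many fragments as the Lgr5+ value. The study describes Lgr6+ cells as part of the Lgr5+ progenitors. Of the sorting genes, *Lgr5* had 9.65 FPKM in Lgr5+ and 24.99 in Lgr6+ progenitors, and *Lgr6* had 2.06 and 2.90, the higher value in the population sorted on it. The supporting cell marker *Sox2* had 140 and 54.8. The study described the sorted cells as lacking Myo7a staining, which shows protein. By q-PCR it reported less of the hair cell marker Brn3.1 in them than in Lgr5- and Lgr6- cells. The table holds RNA values and no such negative cells, so neither statement can be checked against it. In the table the hair cell gene *Myo7a* had 19.3 and 47.0, and *Pou4f3*, which encodes Brn3.1, had 31.0 and 49.0. All 18 hair cell markers examined were above 0 in both populations.

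Of the 8 kept genes, 2 differed by 1.5-fold or more toward Lgr5+ progenitors and 3 toward Lgr6+ progenitors, measured on the log2(FPKM + 1) scale. By this measure 23.3% of all kept genes lay toward Lgr5+ and 28.5% toward Lgr6+ progenitors, 51.8% together. The 5 of 8 genes, or 62.5%, are thus near the share in the whole table. *Scg2* and *Pcsk1* had the larger value in Lgr5+ progenitors, and *Cpe*, *Scg5* and *Chga* had it in Lgr6+ progenitors. The median log2 change of the 8 kept genes was -0.14 and became 0.55 when FPKM was rescaled to the same total in each population, where that of all kept genes became 0.30. In these sorted samples more cells with the transcript and more transcript per cell cannot be told apart.

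**Figure D1:**
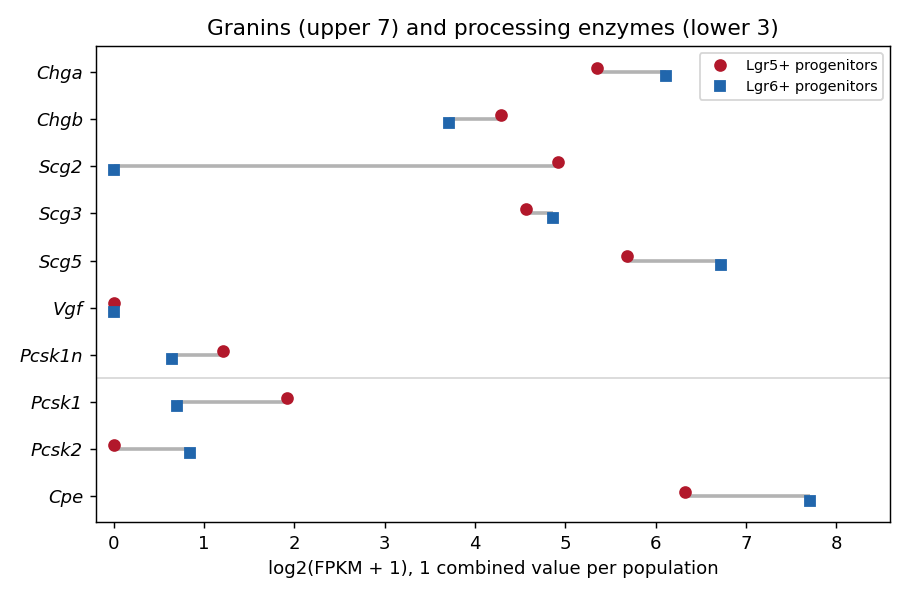
log2(FPKM + 1) of the 10 genes in Lgr5+ progenitors (red circles) and Lgr6+ progenitors (blue squares), 1 combined value per population and no error bars because single libraries were not analysed. *Scg2* runs from 29.3 FPKM in Lgr5+ progenitors to 0 in Lgr6+ progenitors, while *Cpe*, *Scg5* and *Chga* lie to the right in Lgr6+ progenitors and *Vgf* is at 0 in both.

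Promoter sequences are shown for the genes whose windows held a cAMP response element (CRE), the site bound by Creb1 and its relatives, through which several granin genes are known to respond to cell activity. The RefSeq windows, in GRCm38.p6, run from 250 bases before the annotated start to 50 bases after it, and 8 of the 10 genes matched one. *Vgf* and *Cpe* were not matched. The full element TGACGTCA, searched on both strands, was present in 588 of 32851 windows (1.79%) and in those of *Scg2*, *Chgb* and *Pcsk1*. The windows of these 3 genes are printed 5′ to 3′ on the strand of the gene, with the CRE in capitals. *Chga* is added because its window held TGACGTAA, in capitals, which differs from the full element in the seventh letter and was searched for after the sequences had been seen. Other variants with a single changed letter were not searched for, and the *Scg3* window, not printed, holds TGACGCCA.
Scg2, chr1:79439977-79440276, minus strand: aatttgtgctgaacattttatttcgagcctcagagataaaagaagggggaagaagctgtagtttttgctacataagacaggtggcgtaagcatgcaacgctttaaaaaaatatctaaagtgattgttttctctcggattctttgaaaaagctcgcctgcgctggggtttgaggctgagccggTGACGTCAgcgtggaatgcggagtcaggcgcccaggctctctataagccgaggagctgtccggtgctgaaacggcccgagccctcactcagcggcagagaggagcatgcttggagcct
Chgb, chr2:132781392-132781691, plus strand: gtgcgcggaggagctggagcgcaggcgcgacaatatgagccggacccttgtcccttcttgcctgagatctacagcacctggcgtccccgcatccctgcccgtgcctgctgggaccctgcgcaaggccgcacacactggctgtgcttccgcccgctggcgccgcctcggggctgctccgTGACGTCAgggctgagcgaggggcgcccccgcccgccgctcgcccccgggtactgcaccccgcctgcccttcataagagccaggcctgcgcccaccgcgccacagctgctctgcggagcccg
Pcsk1, chr13:75089607-75089906, plus strand: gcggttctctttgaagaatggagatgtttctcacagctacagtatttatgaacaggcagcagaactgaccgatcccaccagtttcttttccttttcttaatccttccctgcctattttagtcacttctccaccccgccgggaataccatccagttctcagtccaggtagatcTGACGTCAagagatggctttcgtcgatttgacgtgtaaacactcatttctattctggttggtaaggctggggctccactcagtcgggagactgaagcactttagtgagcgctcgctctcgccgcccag
Chga, chr12:102554691-102554990, plus strand: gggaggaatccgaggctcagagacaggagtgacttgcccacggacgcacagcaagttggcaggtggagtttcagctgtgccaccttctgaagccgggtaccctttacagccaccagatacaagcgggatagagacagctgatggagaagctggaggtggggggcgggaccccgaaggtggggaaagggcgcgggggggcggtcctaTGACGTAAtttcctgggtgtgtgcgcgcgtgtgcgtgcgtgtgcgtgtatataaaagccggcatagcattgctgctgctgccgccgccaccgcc

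The element began 68 bases before the RefSeq start in *Scg2*, 72 bases before it in *Chgb* and 78 bases before it in *Pcsk1*, so the 3 positions lay within a few bases of each other. These distances depend on the start that is used. Measured from the gene interval of the deposited table, the element began 4 bases before the start of *Scg2* and 208 bases before that of *Pcsk1*, and it lay 292 bases inside the interval of *Chgb*. In *Chga* the variant began 44 bases before the RefSeq start, and TGACGTAA was present in 0.499% of all windows. The TATAAA motif was found among the 8 windows in *Chga* alone, beginning at base 6 after the RefSeq start and 23 bases before the start of the deposited interval, and 13.6% of all windows held it. The core of the RE1 element bound by the repressor Rest, was in none of the 8 windows and in 0.0365% of all windows, which says only that these letters are absent here.

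**Figure D2:**
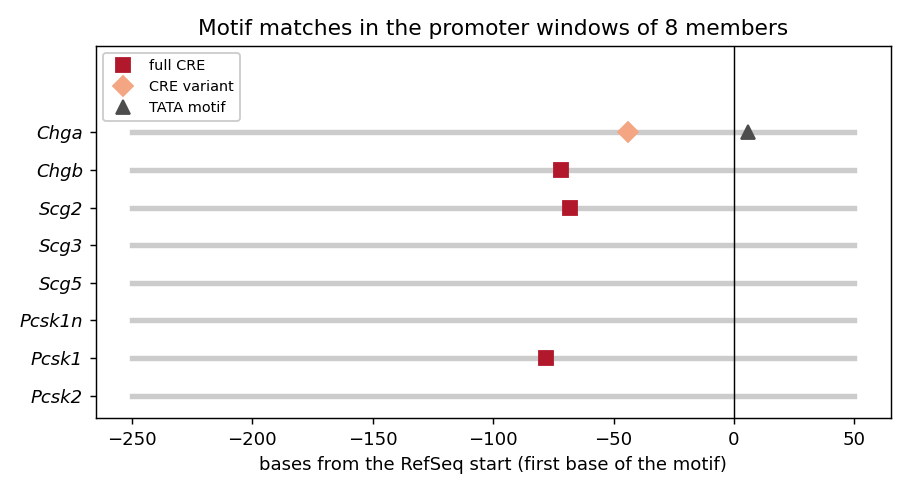
Positions of motif matches in the RefSeq promoter windows of 8 genes, in bases from the annotated start (0), with grey bars for the windows of 250 bases before to 50 bases after it. Red squares mark the full CRE in *Chgb*, *Scg2* and *Pcsk1*, 72, 68 and 78 bases before the start, the orange diamond marks the variant in *Chga* and the triangle its TATA motif.

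The 3 genes with the full CRE were those with the lower FPKM in Lgr6+ progenitors together with *Pcsk1n*, whereas *Chga*, *Scg3*, *Scg5* and *Pcsk2*, without the full element, had the higher FPKM in Lgr6+ progenitors. These are directions of FPKM alone, since *Chgb*, *Scg3* and *Pcsk1n* were within 1.5-fold on the log2(FPKM + 1) scale and *Pcsk2* was not kept. The genes were also selected on these values. The split describes 8 windows, and over all genes with the element the shares were close to the background. Of 353 kept genes with the full CRE in their window, 84 (23.8%) lay 1.5-fold or more toward Lgr5+ and 93 (26.3%) toward Lgr6+ progenitors, against 23.1% and 27.7% of the 10036 kept genes with a window. Their median log2 change was -0.06, and that of all kept genes with a window was 0.02.

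*Scg2* (chr1:79434669-79440090, with all gene intervals in GRCm38) encodes secretogranin II, the precursor of the peptide secretoneurin. Its FPKM was 29.3 in Lgr5+ progenitors, and Lgr6+ progenitors listed it at 0, so no fold is given. In Lgr5+ progenitors it ranked 3077 among all genes and made up 18.1% of the summed FPKM of the 7 granins. Its Lgr5+ value corresponds to 455 to 521 of the steps described above, depending on which of 2 annotated transcripts is taken. The listed 0 stands in the population with the larger number of fragments if a step is 1 fragment. Of 4202 genes at 20 FPKM or more in Lgr5+ progenitors, 7 (0.167%) were listed at 0 in Lgr6+ progenitors, and without microRNA and small nucleolar RNA genes 3 were left. These were *Scg2*, the cardiac troponin gene *Tnnt2* with 27.3 and the water channel gene *Aqp5* with 25.5, which are named because they share this pattern. A listed 0 can be a failed estimate. Whether that of *Scg2* is one was not tested and cannot be read from other genes. Of 173 genes of the ribosome, the proteasome, the respiratory chain and translation initiation, 4 were at 0 in Lgr5+ and 2 in Lgr6+ progenitors, and these were *Cox6a2*, *Cox7b2*, *Psma8* and *Psmb8*, members of those families with restricted expression. By distance over the log2(FPKM + 1) values of the 2 populations, the kept genes nearest to *Scg2* were *Tnnt2* at 0.0962, *Aqp5* at 0.193 and *I730030J21Rik* at 0.341.

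*Chga* and *Chgb* encode the chromogranins, which condense in the forming vesicle and bind calcium and amines. *Chga* (chr12:102554969-102565027) had FPKM values of 39.7 (Lgr5+) and 68.3 (Lgr6+), a ratio of 1.72 and a log2 change of 0.77. *Chgb* (chr2:132781278-132795072) had values of 18.6 and 12.1, with a log2 change of -0.58. The ratio of the *Chgb* values was 1.53 toward Lgr5+ progenitors, but on the log2(FPKM + 1) scale it fell just short of 1.5-fold. The chromogranins thus lay in opposite directions, and *Chga* was 2.14 times *Chgb* in Lgr5+ progenitors and 5.63 times *Chgb* in Lgr6+ progenitors.

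*Scg3* (chr9:75643366-75684056) encodes secretogranin III, which ties chromogranin A to the vesicle membrane. FPKM values of 22.7 (Lgr5+) and 28.0 (Lgr6+) gave a log2 change of 0.29, the smallest in size among the kept genes of the pathway. *Scg5* (chr2:113776313-113829091) encodes the chaperone that the convertase Pcsk2 needs to become active. It had 50.2 and 105, a ratio of 2.09 and a log2 change of 1.05. *Scg5* was the most abundant granin in both populations, with 31.0% of the granin FPKM in Lgr5+ and 49.0% in Lgr6+ progenitors.

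*Pcsk1n* (chrX:7919822-7928607) encodes proSAAS, an inhibitor of Pcsk1. FPKM values were 1.31 (Lgr5+) and 0.565 (Lgr6+), a ratio of 2.33 toward Lgr5+ progenitors. On the log2(FPKM + 1) scale the change was -0.56, which was under 1.5-fold. The FPKM values correspond to 7 to 20 and 10 to 28 steps, and the deposited interval overlaps the gene *Eras*. *Vgf* (chr5:137030295-137033351) encodes a peptide precursor induced by growth factors and by neuronal activity, and it was listed at 0 in both populations. The summed FPKM of the 7 granins was 162 in Lgr5+ and 214 in Lgr6+ progenitors, a ratio of 1.32. For *Chga*, *Chgb*, *Scg3* and *Scg5* alone the sums were 131 and 213. In Lgr5+ progenitors the granin FPKM was spread over *Scg5*, *Chga*, *Scg2*, *Scg3* and *Chgb* with shares from 31.0% down to 11.5%, whereas in Lgr6+ progenitors *Scg5* and *Chga* held 49.0% and 31.9%.

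The convertases that work inside dense-core vesicles were under 3 FPKM in both populations. *Pcsk1* (chr13:75089987-75132498) had FPKM values of 2.79 (Lgr5+) and 0.630 (Lgr6+), a ratio of 4.43 toward Lgr5+ progenitors and a log2 change of -1.22. *Pcsk2* (chr2:143535476-143816282) had 0.791 in Lgr6+ progenitors and a listed 0 in Lgr5+ progenitors, so it was not kept. The *Pcsk1* values correspond to 54 and 39 steps and the Lgr6+ value of *Pcsk2* to 89 steps, so these low levels do not stand on single fragments if a step is 1 fragment. Transcripts named *Pcsk2os1* and *Pcsk2os2* lie within the *Pcsk2* interval, and without strand their reads cannot be told from those of *Pcsk2*. By FPKM *Pcsk2* ranked 13058 of 23997 genes in Lgr6+ progenitors, whereas its chaperone gene *Scg5* ranked 948 there and 1947 in Lgr5+ progenitors.

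*Cpe* (chr8:64592551-64693040) encodes carboxypeptidase E, which trims the basic residues left by the convertases and takes part in sorting cargo to the vesicle. It had the highest FPKM of the 10 genes in both populations, 79.4 in Lgr5+ and 209 in Lgr6+ progenitors, a ratio of 2.63 and a log2 change of 1.38. Its rank among all genes was 1326 in Lgr5+ and 491 in Lgr6+ progenitors. *Cpe* was 28.5 times *Pcsk1* in Lgr5+ progenitors and 332 times in Lgr6+ progenitors. The kept genes nearest to it over the 2 values were *Rogdi* at a distance of 0.129, *Anxa4* at 0.22 and *Vmo1* at 0.233 on the log2 scale. The order of the 10 genes was *Cpe*, *Scg5*, *Chga*, *Scg2*, *Scg3* and *Chgb* in Lgr5+ progenitors and *Cpe*, *Scg5*, *Chga*, *Scg3* and *Chgb* in Lgr6+ progenitors, followed in both by genes under 3 FPKM, and whether neighbours in this order differ beyond their spread cannot be told without single libraries.

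**Figure D3:**
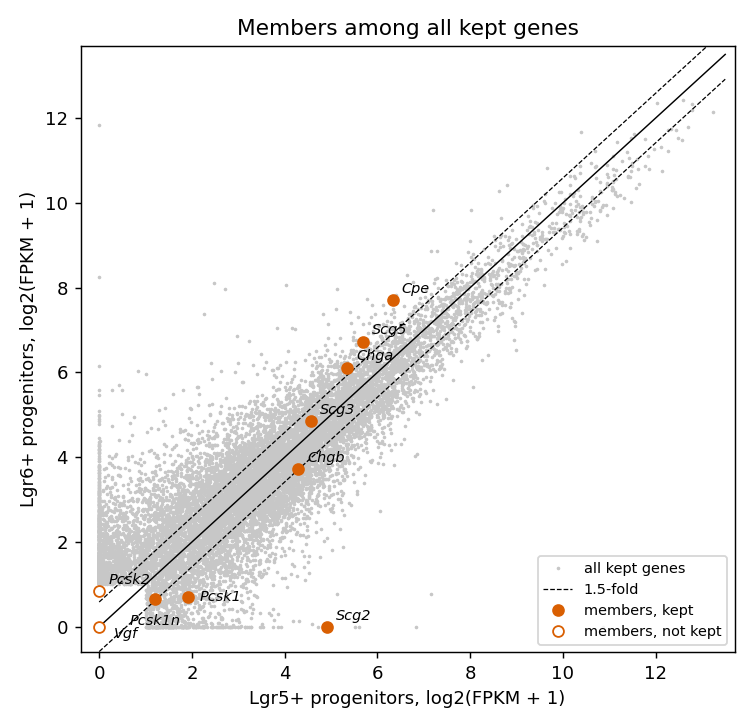
log2(FPKM + 1) in Lgr6+ against Lgr5+ progenitors for the 13436 kept genes (grey), with the 8 kept genes of the pathway as filled and the 2 others as open orange circles. The solid line marks equal values and the dashed lines 1.5-fold, and *Scg2* lies on the axis at 0 in Lgr6+ progenitors while *Chgb* and *Pcsk1n* lie at the lower dashed line.

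Other enzymes that process peptides lay on both sides. Of 20 genes, 19 were kept, 6 lay 1.5-fold or more toward Lgr5+ and 6 toward Lgr6+ progenitors, with a median log2 change of 0.24. Each count is 31.6% of those kept, beside 23.3% and 28.5% of all kept genes. Toward Lgr6+ progenitors the largest changes belonged to *Qpct*, which forms the N-terminal pyroglutamate of peptides and was listed at 0 in Lgr5+ progenitors with 11.4 in Lgr6+ progenitors, and to *Cpa6*, a carboxypeptidase with 3.55 and 16.1. *Pam*, the only amidating enzyme of peptides, had 1.14 and 3.87. Toward Lgr5+ progenitors they belonged to the carboxypeptidase gene *Cpz* with 64.6 and 19.3, the endothelin-converting enzyme genes *Ece2* with 20.4 and 6.19 and *Ece1* with 18.0 and 7.28, and *Aebp1*, a matrix protein related to carboxypeptidases, with 5.99 and 1.66. By mean log2(FPKM + 1) over both populations the most abundant were *Cpxm2*, a carboxypeptidase-like protein, with 161 and 70.1, and the lysosomal protease gene *Ctsl* with 45.4 and 89.5. The broadly expressed convertase genes *Furin*, *Pcsk5*, *Pcsk6* and *Pcsk7*, singled out after their values were seen, summed to 32.1 in Lgr5+ and 46.3 in Lgr6+ progenitors, against 2.79 and 1.42 for *Pcsk1* and *Pcsk2*.

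Genes of vesicle biogenesis and membrane were mostly close between the populations. Of 25 genes, 23 were in the table and 21 were kept, of which 15 were within 1.5-fold, 3 were higher in Lgr5+ and 3 in Lgr6+ progenitors, and the median log2 change was 0.03. The 6 past 1.5-fold were 28.6% of those kept, beside 51.8% of all kept genes. *Cadps*, which primes dense-core vesicles for release, had 0.424 in Lgr5+ and 4.04 in Lgr6+ progenitors, while its paralog *Cadps2* had 18.2 and 10.1. The paralogs thus lay in opposite directions. *Ptprn*, a transmembrane protein of dense-core vesicles, had 0.0387 and 1.27, and the proton pump subunit gene *Atp6v0a1* had 23.0 and 36.7. *Arfip1* and *Vti1a*, which act in vesicle formation at the Golgi, had 36.6 and 13.2 and 8.73 and 3.39. By the same mean the most abundant genes, *Rab2a* with 114 and 124 and *Atp6ap1* with 72.5 and 74.2, were within 1.5-fold.

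Exocytosis genes past 1.5-fold lay on both sides, in shares near those of the whole table. Of 45 genes, 44 were in the table and 36 were kept, with 9 higher in Lgr5+ and 8 in Lgr6+ progenitors, 19 within 1.5-fold and a median log2 change of 0.05. The 17 past 1.5-fold were 47.2% of those kept, beside 51.8% of all kept genes. *Snap25*, the membrane SNARE of neurons and hair cells, had 7.63 in Lgr5+ and 53.4 in Lgr6+ progenitors, a ratio of 7.01. *Cplx1*, a complexin, had 1.57 and 7.22, and *Sytl2*, a Rab27 effector, had 0.0293 and 1.85. Toward Lgr5+ progenitors the largest changes were those of the synaptotagmin gene *Syt5* with 12.9 and 2.30, the vesicle Rab genes *Rab27b* with 8.75 and 2.22 and *Rab26* with 11.6 and 4.32, and the complexin gene *Cplx2* with 12.9 and 5.58. The complexin genes therefore differed in opposite directions. *Vamp8* with 256 and 179 and *Napa* with 75.1 and 75.8 had the highest mean log2(FPKM + 1) of the list and were within 1.5-fold.

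Transcripts of peptide precursors were more often higher in Lgr6+ progenitors. Of 51 genes of neuropeptide and peptide hormone precursors, 24 were kept, 12 of them higher in Lgr6+ and 6 in Lgr5+ progenitors, with a median log2 change of 0.74. That is 50% and 25% of the kept genes, beside 28.5% and 23.3% of all kept genes. The 18 genes past 1.5-fold became 9 where 1 FPKM had to be reached in both populations, a filter that leaves out genes listed at 0. Under that filter 2516 of all 11177 kept genes lay toward Lgr5+ and 2392 toward Lgr6+ progenitors. *Npy* was the most abundant, with 258 in Lgr5+ and 910 in Lgr6+ progenitors, and *Grp*, gastrin-releasing peptide, had 33.2 and 179. *Trh* had 14.0 and 71.5, and *Ghrh* and *Agt* were listed at 0 in Lgr5+ progenitors with 6.27 and 4.11 in Lgr6+ progenitors. The largest changes toward Lgr5+ progenitors were, as with *Scg2*, those of genes listed at 0 in Lgr6+ progenitors, *Insl3* with 14.1, *Gnrh1* with 7.88, *Pyy* with 3.65 and *Edn2* with 1.95. Both populations listed 19 of the 51 genes at 0. Of all genes at 1 FPKM or more in Lgr6+ progenitors, 4.37% were listed at 0 in Lgr5+ progenitors, against 1.31% the other way. The counts above include such genes on both sides.

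**Figure D4:**
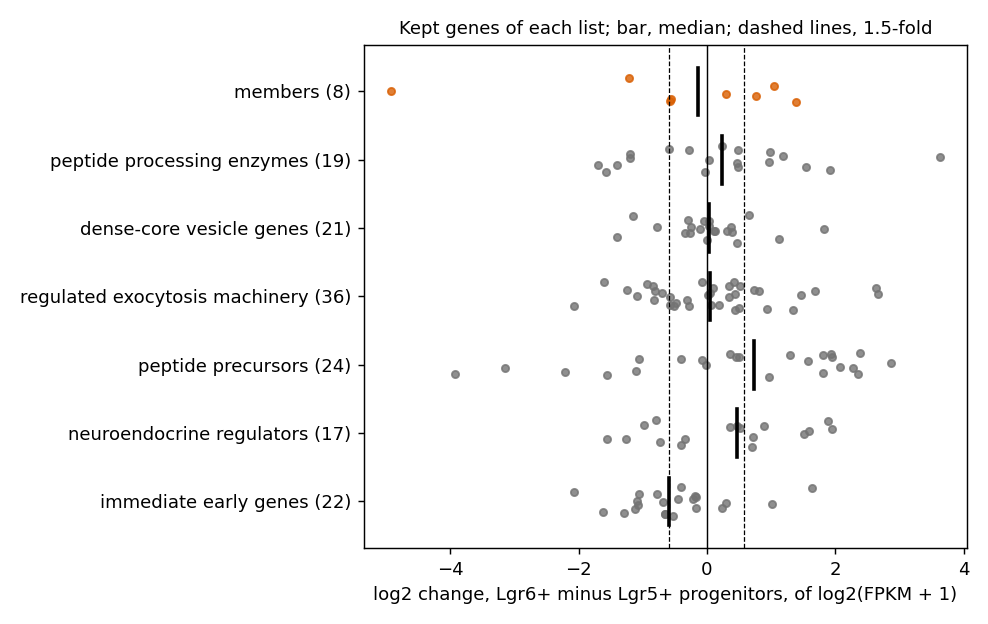
log2 change of each kept gene (point) in the pathway and in 6 further lists, with the number kept in brackets, black bars for medians and dashed lines at 1.5-fold; the vertical scatter within a row has no meaning. The peptide precursors have a median of 0.74 and the immediate early genes a median of -0.59, while the exocytosis genes centre on 0.05.

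Transcriptional regulators of neuroendocrine genes included *Rest*, the repressor of many granin and vesicle genes outside neurons, with FPKM values of 21.2 (Lgr5+) and 6.51 (Lgr6+), a log2 change of -1.56. *Rcor1*, its corepressor, had 24.1 and 18.8 and was within 1.5-fold, while the related *Rcor2* had 2.11 and 10.5. *Insm1*, a zinc finger factor of endocrine cells and outer hair cells, had 2.83 and 10.5, and *Insm2* was listed at 0 and had 1.87. *Isl1*, the most abundant, had 233 and 117. Of the 30 genes 17 were kept, with 5 higher in Lgr5+ and 7 in Lgr6+ progenitors and a median log2 change of 0.47. These are 29.4% and 41.2% of those kept, beside 23.3% and 28.5% of all kept genes, and the 12 genes past 1.5-fold became 7 with a pseudocount of 5 and 6 at a 2-fold threshold. The calls over all 13436 kept genes fell too, from 3136 toward Lgr5+ and 3826 toward Lgr6+ progenitors. They became 2047 and 2224 with that pseudocount and 1575 and 2443 at 2-fold. Among the factors that act at the CRE, the coactivator gene *Crtc2* had 22.8 and 8.97 and *Crtc1* had 2.56 and 12.8, and *Crem* had 3.28 and 1.48. *Creb1* with 4.88 and 7.42 and *Atf1* with 10.2 and 5.73 are added for their binding of the CRE and were chosen after their values were seen.

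The immediate early genes, which are transcribed within minutes of stimulation and also during cell sorting, were more often higher in Lgr5+ progenitors. Of 22 kept genes among 25, 11 (50%) were higher in Lgr5+ and 2 in Lgr6+ progenitors, beside 23.3% and 28.5% of all kept genes, and the median log2 change was -0.59. *Fosl2* had 3.70 in Lgr5+ and 0.121 in Lgr6+ progenitors, *Egr2* had 62.5 and 19.7, *Egr4* had 16.4 and 6.06, and *Fosb* had 146 and 66.4. The most abundant were *Ier2* with 778 and 568, within 1.5-fold, and *Egr1* with 442 and 275. *Ier5* with 2.84 and 10.9 and *Nr4a2* with 1.53 and 4.12 were higher in Lgr6+ progenitors. *Scg2* and *Vgf* are known as activity-regulated genes, and of these *Scg2* was higher in Lgr5+ progenitors and *Vgf* was at 0 in both. The part of cell activity or handling in the values of *Scg2* was not tested.

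Markers of other cochlear cell types differed between the populations. Their counts past 1.5-fold are read beside 28.5% of all kept genes toward Lgr6+ and 23.3% toward Lgr5+ progenitors. Of 18 hair cell markers, all kept, 12 (66.7%) were higher in Lgr6+ progenitors and none in Lgr5+ progenitors, and their summed FPKM was 1901 and 2989. The 18 spiral ganglion neuron markers summed to 1110 and 865, of which *Uchl1* alone gave 901 and 683. Of the 15 kept, 6 (40%) were higher in Lgr6+ and 2 (13.3%) in Lgr5+ progenitors, and *Slc17a7* was at 0 in both populations. Schwann and satellite glia markers summed to 538 in Lgr5+ and 1693 in Lgr6+ progenitors, of which *Fabp7* alone gave 446 and 1370. Of their 9 kept genes, 6 were higher in Lgr6+ and 1 in Lgr5+ progenitors. Macrophage markers summed to 4.22 and 275, with 9 of 9 kept genes higher in Lgr6+ progenitors and 6 of 11 listed at 0 in Lgr5+ progenitors. Endothelial markers summed to 34.5 and 179, with 9 of 10 higher in Lgr6+ and 1 in Lgr5+ progenitors. Mesenchyme and fibrocyte markers summed to 345 and 906, with 7 of 12 higher in Lgr6+ and 1 in Lgr5+ progenitors. Melanocyte and intermediate cell markers summed to 10.7 and 21.8, with 2 of 4 kept genes higher in Lgr6+ and 1 in Lgr5+ progenitors.

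Markers of chromaffin and other neuroendocrine cells summed to 72.1 in Lgr5+ and 46.3 in Lgr6+ progenitors. Of 5 kept genes, 1 (20%) was higher in Lgr5+ and 2 (40%) in Lgr6+ progenitors, beside 23.3% and 28.5% of all kept genes. *Gata2*, also a gene of the cochlea, gave most of the Lgr5+ sum, with 52.4 and 10.98. Of the 12 markers, 6 were at 0 in Lgr5+ and 5 in Lgr6+ progenitors, among them in both populations *Th*, *Dbh*, *Pnmt* and *Hand2*. Toward Lgr6+ progenitors, *Phox2a* was listed at 0 and had 4.35, and the vesicular monoamine transporter gene *Slc18a1* had 0.392 and 3.08. *Syp* with 6.10 and 8.52 and *Ncam1* with 12.2 and 18.4 were within 1.5-fold, and *Ddc* with 0.823 and 0.393 was not kept. The part of neuroendocrine cells in the granin values was not tested. Supporting cell markers summed to 2627 and 1659, of which *Tectb* gave 1347 and 813 and *Hes5* 505 and 91.7. The lower sum in Lgr6+ progenitors thus rests largely on these genes. Of 17, 6 (35.3%) were higher in Lgr5+ and 5 (29.4%) in Lgr6+ progenitors, beside the same 23.3% and 28.5%. The higher *Cpe*, *Scg5*, *Chga* and *Snap25* in Lgr6+ progenitors stand beside the higher hair cell, glial, macrophage, endothelial and mesenchymal markers there. Neuron markers were mixed, with 6 of 15 kept higher in Lgr6+ and 2 in Lgr5+ progenitors and a lower sum in Lgr6+ progenitors. The part of any of these cells in the difference was not tested.

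**Figure D5:**
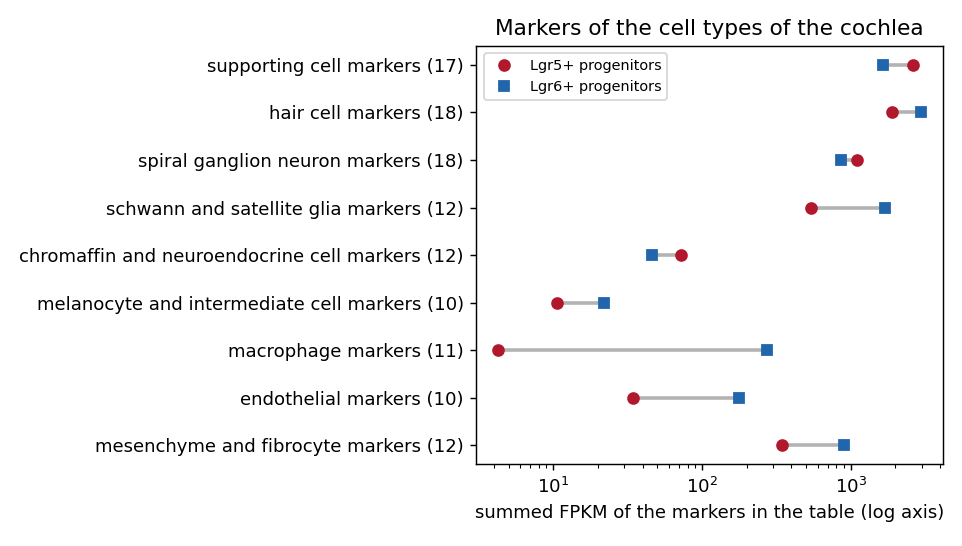
Summed FPKM, on a log axis, of the markers of 9 groups of cells in Lgr5+ progenitors (red circles) and Lgr6+ progenitors (blue squares), with the number of markers in the table in brackets. Macrophage markers run from 4.22 to 275 and hair cell markers from 1901 to 2989. The supporting cell sum is lower in Lgr6+ progenitors, 1659 against 2627, largely through *Tectb* and *Hes5*. Of these 17 markers, 6 are higher in Lgr5+ and 5 in Lgr6+ progenitors.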

How the data were processed

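RNA from sorted Lgr5+ and Lgr6+ progenitors was amplified with a SMART-Seq v4 kit for small inputs before paired-end sequencing. Trimming was done by the authors in Trimmomatic, mapping in TopHat and FPKM estimation in Cufflinks against RefGene, and versions are not given in the sources used here. The FPKM values that the authors deposited are 1 combined value per population, so no replicate test was run on them. The table also holds the fold changes, *p*-values and *q*-values of the authors' own comparison, which were not used. The methods name mm9 and the submitters' processing notes mm10. With 1 added to the start, 99.4% of the gene intervals overlapped the same gene in GRCm38 and 12.7% in NCBIM37 (mm9), so positions are given 1-based and read as GRCm38.

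Genes that reached 1 FPKM in either population were kept, a pseudocount of 1 was added before log2, and a gene counted as higher at 1.5-fold or more. A pseudocount understates the change of low genes. A step in low FPKM values was sought in 7698 genes with 1 annotated transcript of at least 600 bases, as FPKM times transcript length less 200 bases. The median within the fullest bin, 0.05 wide in log2, was taken as the step, and further steps were not sought. Read counts per gene were not analysed here, so the number of fragments behind each value is known only as far as the steps show it, and intervals are not given.

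The 10 genes and all lists were chosen with earlier results of these data known. By rule, the text names the 10 genes, the genes of each list past 1.5-fold with the largest log2 change, up to 4 toward each population, its 2 most abundant genes, and the genes nearest to *Scg2* and *Cpe*. For marker lists, counts and sums are given. Some genes that this rule takes are not reported here by name, and the counts and sums include them. Alternatives were other pseudocounts, filters, scalings and a 2-fold threshold. The calling step was tested on simulated data. Python 3.11.15, numpy 2.4.6, pandas 2.3.3 and matplotlib 3.10.9 were used. Protein sequences were not used here.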

Additional observations from a re-analysis of the deposited data

How the results depend on the processing

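No paired analysis was possible because the deposited columns carry no replicate numbers and hold 1 combined value per population, and for the same reason no library was left out in turn. Other pseudocounts, filters and thresholds cannot change the direction of a gene, so only the scalings could. No gene of the pathway past 1.5-fold changed direction after quantile normalization or with FPKM rescaled to the same total. Scaling to the same upper quartile hardly changed the values, moving the log2 change of *Cpe* from 1.384 to 1.382. The 3 genes higher in Lgr6+ progenitors, *Cpe*, *Scg5* and *Chga*, were so in all settings at 1.5-fold, joined by *Pcsk2* without a filter and with TPM, and *Chga* was not at 2-fold. The count higher in Lgr5+ progenitors moved more, being 4 with a pseudocount of 0.1 and after quantile normalization, where *Chgb* and *Pcsk1n* joined, 1 with a pseudocount of 5 and where 5 FPKM had to be reached in either population, and 0 where 1 FPKM had to be reached in both, a filter that by its construction leaves out *Scg2* and *Pcsk1*. The count toward Lgr5+ progenitors over all kept genes moved too. From 3136 of 13436 it became 3434 with a pseudocount of 0.1 and 2047 with a pseudocount of 5. After quantile normalization it was 3556 of 13402. With the filters it was 2414 of 10013 at 5 FPKM and 2516 of 11177 with 1 FPKM in both populations. These filters kept 6 and 5 genes of the pathway. The median log2 change of the kept genes of the pathway was 0.036 with a pseudocount of 5, 0.15 without a filter, 0.53 with the filter at 5 FPKM, 0.77 with 1 FPKM in both populations and 0.55 with FPKM rescaled to the same total (TPM), so its sign depended on the setting. That rescaling moved the median of all kept genes from 0.03 to 0.30 and the share of calls higher in Lgr6+ progenitors from 55.0% (3826, with 3136 toward Lgr5+ progenitors) to 69.7% (5402, with 2348). Past the threshold were 9 peptide precursors with 1 FPKM in both populations, 9 exocytosis genes at 2-fold, and 7 neuroendocrine regulators with a pseudocount of 5 and 6 at 2-fold. The calls over all kept genes fell in these settings as well, at 2-fold to 1575 toward Lgr5+ and 2443 toward Lgr6+ progenitors. Differences under the spread of single libraries, which is not known, cannot be told from noise.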
